A study of Mus musculus with 9 samples.

Results

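The endosomal Toll-like receptors of the mouse, Tlr3, Tlr7, Tlr8, Tlr9, Tlr11, Tlr12 and Tlr13, were followed together with Unc93b1, the gene of the protein that brings them to endosomes. These 8 genes were taken by symbol alone, out of 24054 genes listed for each library, and the rule that selects them uses no expression value. All 8 passed the filter on low counts and were among the 14452 genes tested.

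Messenger RNA was sequenced in 9 libraries of splenic type 2 dendritic cells, 3 in each of 3 groups. All mice were C57BL/6 with Cre on both copies of the Clec9a locus and the red reporter TOMATO (TOM) on both copies of Rosa, so every group, controls included, carried the same alleles, and TOM labels cells that expressed Clec9a, which drives the Cre, now or earlier in their lineage. Young mice (postnatal day 8) gave TOM+ cDC2 and, as a separate group, TOM- DC2, and the third group was TOM+ cDC2 of adults aged 9 weeks for library 91 and 8 weeks for libraries 92 and 95. Cells were live, single, without autofluorescence and positive for MHCII, CD11c and CD11b, and no TOM- library from adults was analysed here. Young spleens were pooled and nothing in the labels ties libraries to separate animals, so the p-values measure the spread between these libraries only, and that spread may be partly technical.

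Endosomal receptors sense nucleic acids or microbial proteins inside the cell, after a target has been taken up and broken down. UNC93B1 escorts them from the endoplasmic reticulum, and cells without it cannot respond through them. TLR3 recognises double-stranded RNA and signals through TICAM1, whereas the others signal through MYD88. TLR7 and TLR8 are receptors for single-stranded RNA, TLR9 for CpG DNA and TLR13 for bacterial ribosomal RNA, while TLR11 and TLR12 together recognise a profilin of the parasite Toxoplasma gondii.

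Tlr11 and Tlr12 encode receptor partners but differed in how they were distributed over the groups, and the sequences before their start sites are therefore shown. Each is the 250 bases before the RefSeq start in build GRCm38.p6, written 5′ to 3′ on the gene's own strand. The Tlr11 window lies at chr14:50357664-50357913 on the plus strand and the Tlr12 window at chr4:128618620-128618869 on the minus strand.
Tlr11: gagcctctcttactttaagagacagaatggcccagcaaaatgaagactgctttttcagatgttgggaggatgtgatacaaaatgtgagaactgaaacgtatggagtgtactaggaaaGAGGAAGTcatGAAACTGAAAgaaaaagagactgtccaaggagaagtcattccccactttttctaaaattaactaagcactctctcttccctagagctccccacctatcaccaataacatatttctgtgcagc
Tlr12: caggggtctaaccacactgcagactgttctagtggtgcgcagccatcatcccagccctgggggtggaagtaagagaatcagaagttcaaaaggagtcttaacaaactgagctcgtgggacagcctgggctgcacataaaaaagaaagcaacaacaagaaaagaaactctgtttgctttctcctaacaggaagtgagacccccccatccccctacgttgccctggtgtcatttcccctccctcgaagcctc
Capitals mark GAGGAAGT, a motif of the ETS factor encoded by Spi1, and the core of the interferon-stimulated response element, which is GAAA followed after any 2 bases by GAAA. In the Tlr11 window GAGGAAGT stood 133 to 126 bases and GAAACTGAAA 122 to 113 bases before the start, without overlap. Neither motif was found in exactly this form on either strand of the Tlr12 window, which also held no E-box (CANNTG) and no consensus NF-κB site. The Tlr12 window did hold CAGGAAGT, which differs from GAGGAAGT in its first base, and such near matches were not counted. Searched the same way on both strands, 2.44% of 32851 such windows held GAGGAAGT, 2.98% the response element core, 66.2% CANNTG and 0.14% the NF-κB consensus. A match in the sequence is a description and not a binding site.

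Reads on genes ranged from 12783252 to 22809401 per library. The cDC2 marker list summed to 61800 to 66050 TPM (a level per transcript length, relative to all transcripts of the library) in young TOM+, 58830 to 63700 in young TOM- and 92820 to 96130 in adult libraries. Most of that sum was Cd74 and H2-Ab1, which averaged 44850 and 16830 TPM in young TOM+ and 63200 and 28830 TPM in adult libraries. Of 12 cDC2 markers tested, 8 passed as higher in adult than in young TOM+ libraries and 3 as lower, against 19.5% and 21.0% of all genes tested. For young TOM+, young TOM- and adult libraries in turn, the cDC1 list, of which Clec9a averaged at most 0.173 TPM, summed to 224.5 to 259.5, 204.4 to 253.6 and 152.3 to 176.1 TPM. In the same order of groups, markers of ESAM-high cDC2 summed to 257.5 to 378.8, 341.9 to 472.0 and 719.6 to 758.0 TPM, of ESAM-low cDC2 to 1754 to 2599, 1846 to 3085 and 1871 to 2364 TPM, and of monocytes to 1699 to 2539, 1800 to 3019 and 1801 to 2278 TPM. Lyz2, which averaged 1783, 2096 and 1898 TPM, made up most of both the ESAM-low and the monocyte sums. Neutrophil markers reached 32.76 TPM in TOM- library 81 and at most 1.01 TPM in every other library. Xist had no read in any library and Ddx3y, on the Y chromosome, lay between 53.8 and 123 TPM in all, and of the receptors Tlr7, Tlr8 and Tlr13 are X-linked. In bulk samples, fewer cells of a type and less RNA per cell cannot be told apart.

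Transcripts of the 8 genes spanned a wide range of levels. Unc93b1 was the most abundant in every library and averaged 468.5 ± 13.07 TPM in young TOM+ cDC2, 432.3 ± 31.3 TPM in young TOM- DC2 and 837.6 ± 59.06 TPM in adult TOM+ cDC2 (mean ± SD, n = 3 in each group). Among the receptors Tlr13 led in all groups, at 44.31 ± 9.2, 42.42 ± 10.59 and 53.46 ± 14.67 TPM. What followed differed between groups, with Tlr11 next in young TOM+ cDC2, Tlr12 in young TOM- DC2 and Tlr7 in adults. Tlr3, Tlr8 and Tlr9 stayed low, between 1.76 and 3.60 TPM in each library. Neighbours in this order whose library ranges overlapped, and which were thus not separated beyond their spread, were Tlr7 and Tlr3, and Tlr8 and Tlr9, in young TOM+ cDC2. In young TOM- DC2 they were Tlr11 and Tlr7, Tlr3 and Tlr8, and Tlr8 and Tlr9, and in adults Tlr8 and Tlr9, and Tlr9 and Tlr3.

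**Figure D1:**
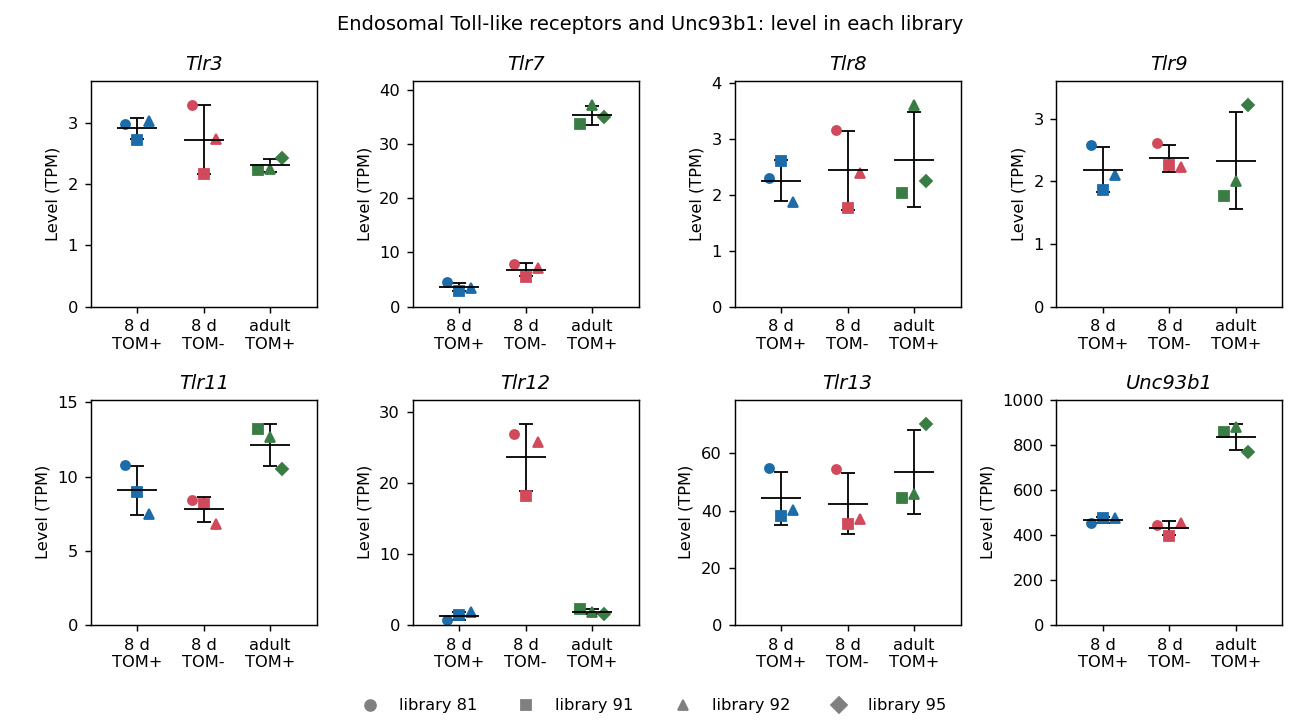
Level of each gene in TPM (vertical axes, linear and starting at 0, with a scale of their own in each panel) in the 3 groups, 1 symbol per library with the shape giving the library number, and the mean with its SD as bars. Tlr7 and Unc93b1 stand apart in adults, at 33.72 to 37.25 and 770.47 to 881.68 TPM, and Tlr12 stands apart in young TOM- DC2, at 18.16 to 26.91 TPM.

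Young TOM+ cDC2 were set against adult TOM+ cDC2 to ask how cells of the same fate-mapped kind differ with age. Tlr7 rose 10.8-fold with age and Unc93b1 and Tlr11 rose by less, while Tlr3, Tlr8, Tlr9, Tlr12 and Tlr13 did not pass the test. At a log2 fold change (log2FC) beyond 1 and an adjusted p under 0.05, 1 of the 8 genes was called, Tlr7, against 12.8% of all genes tested. At an adjusted p under 0.05 alone, 3 of the 8 passed, all higher in adults, against 40.6% of all genes. The median log2FC, adult minus young, was 0.468 over the 8 genes and -0.049 over all genes tested. The number called was 2 without adult library 95, when Unc93b1 joined Tlr7, and 3 without young TOM+ library 92, when Tlr12 joined both.

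Tlr7 lies at chrX:167304929-167330558 (GRCm38, minus strand). It had 4.48, 2.91 and 3.40 TPM in young TOM+ libraries 81, 91 and 92, from 189, 113 and 154 reads. Young TOM- libraries held 7.91, 5.44 and 7.13 TPM, from 253, 197 and 372 reads. Adult libraries 91, 92 and 95 held 33.72, 37.25 and 35.15 TPM, from 962, 1055 and 1285 reads. All adult libraries were thus high, the young TOM- libraries lay in between, and no library of any group overlapped another group. In read counts scaled by library size, young and adult TOM+ libraries did not overlap for 51.1% of all genes tested. Between young TOM- and adult libraries this share was 47.6%, and between the young groups 16.6%. Between young and adult TOM+ cDC2 the log2FC was 3.43 (SE 0.144, 95% interval 3.11 to 3.74, adjusted p = 3e-08 by edgeR's quasi-likelihood test), a fold of 10.77 (interval 8.659 to 13.39), which ranked 8 by p among all genes tested. It was called under every one of 18 alternative settings.

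Tlr8 is the neighbour of Tlr7, 40599 bases away on the same strand, and did not share its difference. It measured 2.29, 2.60 and 1.87 TPM in young TOM+, 3.16, 1.76 and 2.38 TPM in young TOM- and 2.03, 3.60 and 2.24 TPM in adult libraries, in the order of their numbers. The groups overlapped, and the log2FC with age in TOM+ cells was 0.36 (95% interval -0.21 to 0.93, adjusted p = 0.30, edgeR). Tlr8 rested on 50 to 103 reads per library, and the upper end of its interval lies under the log2FC of Tlr7.

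Tlr9, the CpG DNA receptor on chr9:106222598-106226883, was equally low. Its levels were 2.58, 1.87 and 2.11 TPM in young TOM+, 2.62, 2.27 and 2.23 TPM in young TOM- and 1.77, 2.01 and 3.22 TPM in adult libraries. Adult library 95 was the highest of all and adult library 91 the lowest, so the spread within adults exceeded the distance between the group means. The age difference in TOM+ cells was 0.24 on the log2 scale (95% interval -0.23 to 0.71, adjusted p = 0.40, edgeR), and it fell to -0.03 without adult library 95. The ratio of Tlr7 to Tlr9, both in TPM, was 1.64 ± 0.0929 in young TOM+, 2.87 ± 0.42 in young TOM- and 16.2 ± 4.57 in adult libraries (SD, n = 3).

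Plasmacytoid dendritic cells (pDC) and B cells also express Tlr7 and Tlr9, and their marker lists were summed beside these values. pDC markers summed to 104.9 to 110.2 TPM in young TOM+, 110.8 to 116.7 TPM in young TOM- and 122.3 to 165.3 TPM in adult libraries. Bst2, which many cells express, made up most of that sum, while Siglech averaged at most 0.88 TPM and Klk1 was listed at 0 throughout. In the age comparison of TOM+ cells 1 of 7 tested pDC markers passed, against 40.6% of all genes tested. B cell markers summed to 61.77 to 71.8, 77.35 to 89.65 and 45.25 to 58.39 TPM, mostly Cd79b, which fell with age, whereas Ms4a1 averaged 2.46, 7.80 and 16.9 TPM in the same order. The B cell markers Ms4a1, Cr2 and Fcer2a were among 4 of 7 tested that were called as higher in adult than in young TOM+ libraries, against 6.86% of all genes tested. Their part in the Tlr7 difference was not tested.

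Unc93b1, on chr19:3935186-3949340 (plus strand), measured 453.49, 477.50 and 474.45 TPM in young TOM+ libraries and 445.64, 396.58 and 454.79 TPM in young TOM- libraries. Adult libraries held 860.53, 881.68 and 770.47 TPM. Every adult library lay above every young library, and the young groups overlapped. In scaled read counts 51.1% of all genes tested did not overlap between adult and young TOM+ libraries, and 47.6% between adult and young TOM- libraries. The log2FC with age in TOM+ cells was 0.97 (SE 0.095, 95% interval 0.76 to 1.17, adjusted p = 9.4e-06, edgeR), a fold of 1.956, which passed the test but fell just under the fold required for a call and was called in 3 of 18 alternative settings. The fitted fold includes TMM scaling, which TPM lack and whose factors were 0.894 to 0.928 in adult and 1.02 to 1.08 in young libraries. Per TPM of the 7 receptors summed, Unc93b1 stood at 7.29 ± 1.33 in young TOM+, 4.99 ± 0.712 in young TOM- and 7.72 ± 1.38 in adult libraries (SD, n = 3).

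Tlr11, on chr14:50357914-50363663, had 10.79, 8.98 and 7.48 TPM in young TOM+, 8.42, 8.15 and 6.80 TPM in young TOM- and 13.22, 12.68 and 10.54 TPM in adult libraries. The lowest adult library, 95, fell just below the highest young TOM+ library, 81, in TPM, and lay above all young TOM- libraries. Adult and young TOM- libraries did not overlap for 47.6% of all genes tested, in scaled read counts. Its log2FC with age in TOM+ cells was 0.54 (SE 0.145, 95% interval 0.22 to 0.85, adjusted p = 0.011, edgeR). On log2(TPM + 1) or log2(TPM + 0.1) limma gave adjusted p = 0.068 and 0.064, which no longer passed.

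Tlr13, on chrX:106143204-106160493, was the most abundant receptor, and its libraries varied widely within each group. It measured 54.86, 37.94 and 40.14 TPM in young TOM+, 54.60, 35.47 and 37.18 TPM in young TOM- and 44.28, 45.71 and 70.38 TPM in adult libraries. Library 81 was the highest in both young groups, adult library 95 was the highest of all, and the groups overlapped. The log2FC with age in TOM+ cells was 0.40 (95% interval 0.01 to 0.78, adjusted p = 0.092, edgeR) and passed without young TOM+ library 81 (adjusted p = 0.035). With library number as a block over all libraries it was 0.33 (adjusted p = 0.00048, edgeR). That block does not rest on pairs of young and adult libraries, and adult library 95, alone under its number, drops out of its age difference. Without adult library 95 and without a block the log2FC was 0.18 (adjusted p = 0.41, edgeR).

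Tlr3, the receptor for double-stranded RNA on chr8:45395665-45411080 (minus strand), had 2.97, 2.71 and 3.03 TPM in young TOM+, 3.28, 2.16 and 2.73 TPM in young TOM- and 2.23, 2.24 and 2.43 TPM in adult libraries. Adult TOM+ libraries lay below all young TOM+ libraries and within the range of the young TOM- libraries. These 2 TOM+ groups did not overlap for 51.1% of all genes tested, in scaled read counts. The log2FC with age in TOM+ cells was -0.22 (95% interval -0.56 to 0.12, adjusted p = 0.28, edgeR). Reads were counted without strand, so reads of Tlr3 and of the antisense gene Gm45542, which overlaps it, cannot be told apart.

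The comparison of TOM+ cDC2 and TOM- DC2 at 8 days asks whether cells that differ in Clec9a history differ in expression. Tlr12 was 18-fold higher in TOM- DC2, Tlr7 was higher there by less, and the other 6 genes did not pass. Of the 8 genes 1 was called, Tlr12, against 1.18% of all genes tested, and 2 passed at an adjusted p under 0.05 alone, against 1.6%. Of 170 genes called in this comparison 167, or 1.16% of all tested, were higher in TOM- DC2, as Tlr12 was. The median log2FC, TOM+ minus TOM-, was -0.004 over the 8 genes and 0.001 over all genes tested. The number called was 2, with Tlr7 added, without young TOM+ library 81 and without young TOM- library 91.

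Tlr12 lies at chr4:128615443-128618619 (minus strand). Young TOM- libraries 81, 91 and 92 held 26.91, 18.16 and 25.71 TPM, from 714, 547 and 1127 reads. Young TOM+ libraries held 0.72, 1.34 and 1.78 TPM, from 25, 42 and 67 reads, and adult libraries 2.19, 1.90 and 1.53 TPM, from 52, 44 and 46 reads. The TOM- libraries stood apart from both TOM+ groups, which overlapped each other despite their ages. Over all genes tested, 16.6% did not overlap between the young groups and 47.6% between young TOM- and adult libraries, in scaled read counts. Between TOM+ and TOM- cells at 8 days the log2FC was -4.17 (SE 0.265, 95% interval -4.75 to -3.59, adjusted p = 7.4e-06, edgeR), a fold of 18.02 (interval 12.07 to 26.89), which ranked 4 by p. In libraries of the same number Tlr12 was 36.8, 13.5 and 14.4 times higher in TOM- cells (81, 91 and 92, read counts scaled by library size), and the larger value of number 81 came with the 25 reads of its TOM+ library. With library number as a block for the young libraries the log2FC was -4.19 (adjusted p = 8e-07, edgeR).

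The partner of Tlr12 did not share this difference. Tlr11 overlapped between the young groups, with a log2FC of 0.26 (95% interval -0.06 to 0.58, adjusted p = 0.67, edgeR), and the ratio of Tlr12 to Tlr11 in TPM was 3.07 ± 0.783 in young TOM- DC2, 0.151 ± 0.0857 in young TOM+ cDC2 and 0.154 ± 0.011 in adult cDC2 (SD, n = 3). The TPM of Tlr12 exceeded that of Tlr11 in every TOM- library and in no TOM+ library.

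Markers of other cell types were set beside the Tlr12 values. The T, NK and innate lymphoid cell markers Cd3e, Cd3d, Cd3g, Ncr1, Klrb1c and Il7r summed to 6.27 to 8.59 TPM in young TOM-, 3.78 to 8.87 TPM in young TOM+ and 3.61 to 5.92 TPM in adult libraries, and Cd3e, Cd3d, Cd3g and Ncr1 averaged at most 1.01 TPM in any group. Macrophage markers were highest in TOM- libraries, at 283 to 344.5 TPM against 173.2 to 222.6 TPM in young TOM+ and 100.6 to 152.4 TPM in adult libraries. None of the 8 tested passed between the young groups, where 1.6% of all genes tested passed. As higher in young TOM- than in adult libraries 5 passed, against 19.4% of all genes. Of 7 tested B cell markers 2, Fcer2a and Ms4a1, were called as higher in young TOM- than in young TOM+ libraries, against 1.16% of all genes tested. The part of these markers in the Tlr12 difference was not tested. Without TOM- library 81, which held the neutrophil genes, the log2FC of Tlr12 was -4.11.

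Tlr7 was the other gene that passed between the young groups, with a log2FC of -0.89 (SE 0.145, 95% interval -1.21 to -0.57, adjusted p = 0.0057, edgeR), a fold of 1.854. The ratio in libraries of the same number was 1.73, 1.81 and 2.06 in favour of TOM- cells. On log2(TPM + 1) and log2(TPM + 0.1) limma gave adjusted p = 0.059 and 0.051, which no longer passed.

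For the remaining genes the young groups overlapped. TOM+ minus TOM-, Unc93b1 differed by 0.15 (95% interval -0.06 to 0.35), Tlr3 by 0.12 (-0.21 to 0.45) and Tlr13 by 0.10 (-0.28 to 0.49) on the log2 scale, with adjusted p between 0.67 and 0.97 for all genes that did not pass. Tlr9 differed by -0.11 (-0.57 to 0.35) and Tlr8 by -0.11 (-0.67 to 0.45). All of these intervals lie within the fold required for a call.

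**Figure D2:**
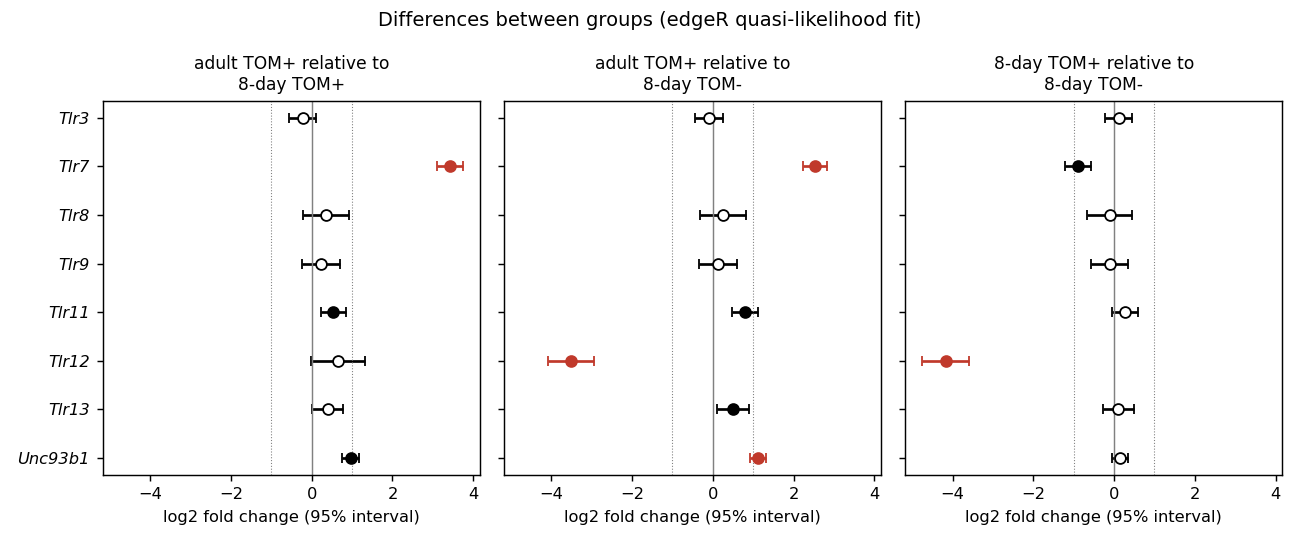
log2 fold change of each gene with its 95% interval (horizontal axis) in the 3 comparisons, with dotted lines at the fold required for a call. Red points were called, filled black points passed at an adjusted p under 0.05 only and open points did not pass, so that Tlr7 is called in both comparisons with adults and Tlr12 in both comparisons with TOM- DC2.

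Young TOM- DC2 were also set against adult TOM+ cDC2, a comparison that differs in both age and TOM status and that shares its adult libraries with the age comparison of TOM+ cells. Of the 8 genes 3 were called, Tlr7 and Unc93b1 as higher in adults and Tlr12 as higher in TOM- DC2, against 11.3% of all genes tested. At an adjusted p under 0.05 alone 5 passed, against 36.3%, and the median log2FC, adult minus young, was 0.374 for the 8 genes and -0.07 for all. Tlr7 had a log2FC of 2.54 (fold 5.809, adjusted p = 2e-07, edgeR), beside 3.43 against young TOM+ cells. Unc93b1 had 1.11 (fold 2.164, adjusted p = 4.8e-06), beside 0.97. Tlr12 had -3.52 (fold 11.44, adjusted p = 1.9e-06), beside 0.66 (95% interval -0.02 to 1.33, adjusted p = 0.11) against young TOM+ cells. There it passed by DESeq2 (adjusted p = 0.045) and without young TOM+ library 92 (adjusted p = 0.025). It also passed there with the block over all libraries (adjusted p = 0.042), which does not rest on pairs of young and adult libraries. Tlr11 and Tlr13 passed with 0.80 (adjusted p = 0.0011) and 0.50 (adjusted p = 0.044), the latter only while TOM- libraries 91 and 92 and adult library 95 were all kept, and not by limma (adjusted p = 0.29 on log2(TPM + 1)). Tlr3, Tlr8 and Tlr9 again did not pass, at -0.10, 0.25 and 0.13.

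Summed over the 7 receptors, transcripts amounted to 65.6 ± 11.3 TPM in young TOM+, 88.2 ± 17.1 TPM in young TOM- and 110.0 ± 13.7 TPM in adult libraries (SD, n = 3). Tlr13 supplied 67.3% ± 2.35 of the sum in young TOM+ cDC2, 47.9% ± 3.47 in young TOM- DC2 and 48.0% ± 7.04 in adults. In adults Tlr7 supplied 32.4% ± 3.87, compared with 5.45% ± 0.401 in young TOM+ and 7.76% ± 0.615 in young TOM- libraries. In young TOM- DC2 Tlr12 supplied 26.8% ± 3.21, compared with 2.06% ± 1.05 in young TOM+ and 1.74% ± 0.493 in adult libraries. Young TOM- DC2 and adult cDC2 thus had a like share of Tlr13 and filled the rest with different receptors. These shares are parts of a sum, so a rise in any receptor lowers the others' shares, and they are given without a test.

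**Figure D3:**
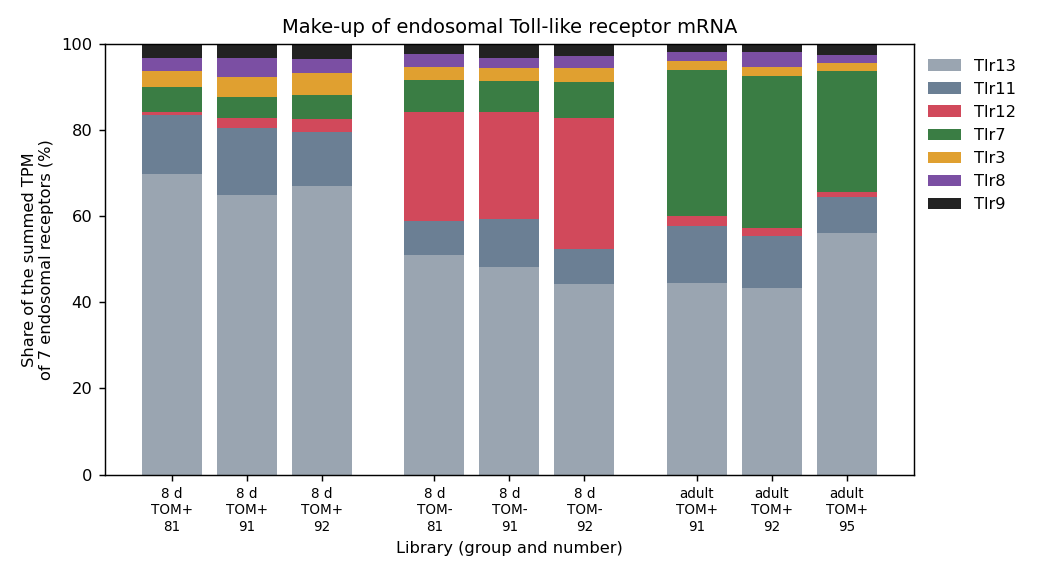
Share of each of the 7 receptors in their summed TPM (vertical axis, percent) in each library (1 bar per library, named by group and number). Tlr12 takes 24.7% to 30.5% in the young TOM- libraries and at most 2.98% elsewhere, and Tlr7 takes 28.0% to 35.3% in the adult libraries and at most 8.47% elsewhere.

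Genes whose pattern was most like that of each receptor were sought by Pearson correlation of log2(TPM + 1) over the 9 libraries, which fall into 3 groups, among 10111 tested genes averaging at least 50 reads. Such correlations largely follow differences between the groups and do not test likeness within a group. For Tlr12 the leading genes were Plekhs1 (r = 0.9881) and Col17a1 (0.9842), and 17 genes exceeded 0.95. Plekhs1 averaged 7.31 TPM in young TOM-, 0.123 in young TOM+ and 0.127 in adult libraries. It thus reached the minimum of reads through the TOM- libraries, where Tlr12 is high too. Col17a1, a collagen of epithelial attachment sites, averaged 41.3 TPM in young TOM-, 1.29 in young TOM+ and 2.39 in adult libraries. For Tlr7 the leading genes were Ddx5 (0.9949), Smim14 (0.9942) and Phc1 (0.9938), with 314 genes above 0.95. Correlation does not weigh the size of a difference. From young TOM+ to adult libraries Ddx5 went from 478 to 696 TPM, Smim14 from 81.2 to 125 and Phc1 from 14.4 to 65.0. For Unc93b1 the leading genes were Slc15a4 (0.9932) and Cmtr1 (0.9924), with 136 genes above 0.95. The leading gene was Prkab2 for Tlr11 (0.99, then Rexo4 and Mthfs), Aaed1 for Tlr3 (0.9796, then Cltc and Sik2) and Ubr1 for Tlr13 (0.9769, then Cdc5l and Bmp2k). For Tlr8 it was Dapk3 (0.9443, then Bap1 and Cog4) and for Tlr9 Ap5m1 (0.9374, then Ick and Adam17), and no gene reached 0.95 for either.

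The other genes of the pathway were listed by role, 82 in all, of which 78 were tested. In the age comparison of TOM+ cells 7 of them were called, all higher in adults, which is 8.97% against 12.8% of all genes, and at an adjusted p under 0.05 33 of the 78 rose and 10 fell, against 19.5% and 21.0% of all genes. Between young TOM- and adult cells 5 were called, all higher in adults, with 30 higher and 9 lower in adults at that level, against 16.9% and 19.4% of all genes. Between the young groups 2 were called, Ctsl and Sarm1, both higher in TOM- cells, and Irf8 also passed. Shares called among pathway genes were thus below that of all genes with age and were 2.56% against 1.18% between the young groups.

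Chaperones and trafficking factors that act with UNC93B1 or on its cargo showed small differences. Of 20 tested none was called with age in TOM+ cells, against 12.8% of all genes tested. At an adjusted p under 0.05, 6 rose and 4 fell, against 19.5% and 21.0% of all genes. Slc15a4, a lysosomal histidine transporter needed for TLR7 and TLR9 signalling, rose from 89.0 to 140 TPM (log2FC 0.78, adjusted p = 5.8e-05, edgeR). 5430427O19Rik, which encodes the SLC15A4 partner TASL, rose by 0.61 (adjusted p = 2e-04). Of the folding chaperones of these receptors, Cnpy3 rose by 0.28 (adjusted p = 0.0069) and Hsp90b1 fell by 0.43 (adjusted p = 0.025) on the log2 scale.

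Genes that prepare or carry ligands for these receptors included 1 called with age, Dnase1l3, a secreted DNase that digests DNA on particles, which rose from 70.1 to 212 TPM in TOM+ cells (log2FC 1.73, adjusted p = 5.4e-07, edgeR). This was 1 of 15 tested, against 12.8% of all genes. At an adjusted p under 0.05, 4 rose and 1 fell, against 19.5% and 21.0% of all genes. Ctss and Lgmn, proteases that cleave endosomal receptors, and the co-receptor Cd14 also rose, by 0.48, 0.63 and 0.90 on the log2 scale. Hmgb1 fell by 0.78. Ctsl, another such protease, was the member of this list that was called between the young groups, with 37.6 TPM in TOM- and 18.4 TPM in TOM+ cells (log2FC -1.02, adjusted p = 0.046).

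Among 20 adaptors and kinases 2 were called with age in TOM+ cells, against 12.8% of all genes tested. They were Pik3ap1 (log2FC 1.05) and the kinase gene Map3k8 (log2FC 1.53), both higher in adults. At an adjusted p under 0.05, 8 of the 20 rose and 2 fell, against 19.5% and 21.0% of all genes. Myd88, the adaptor of all these receptors but TLR3, did not pass (log2FC -0.14, adjusted p = 0.19, edgeR), whereas Ticam1, the adaptor of TLR3, rose by 0.45 (adjusted p = 0.041). All 11 transcription factors passed with age in TOM+ cells, 9 rising and 2, Irf5 and Batf, falling. Over all genes tested 40.6% passed, 19.5% as higher and 21.0% as lower in adults. Irf7, which drives type I interferon genes downstream of TLR7 and TLR9, rose from 44.4 to 170 TPM (log2FC 2.08, adjusted p = 1.9e-07), Rel by 1.17 and Irf8 by 1.10, and Irf5 fell by 0.25 (adjusted p = 0.042). Irf8 averaged 41.5 TPM in young TOM- and 23.6 TPM in young TOM+ cells (log2FC -0.77, adjusted p = 0.0027), beside 47.2 TPM in adult cells. Of the 231 genes of all tested that passed between the young groups, 213 were likewise higher in TOM- cells.

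Negative regulators held 12 tested genes, of which 6 rose and Irak3 fell with age in TOM+ cells, against 19.5% and 21.0% of all genes. Of the 12, 1 was called, against 12.8% of all genes. Tnfaip3, the deubiquitinase A20 gene, rose by 0.80 on the log2 scale (adjusted p = 0.0055, edgeR). Sarm1 was called with age in TOM+ cells (log2FC 3.13) and between the young groups (log2FC -3.00), from 2 to 3 reads in each young TOM+ library against 11 to 33 reads in the others, so its folds rest on few reads.

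**Figure D4:**
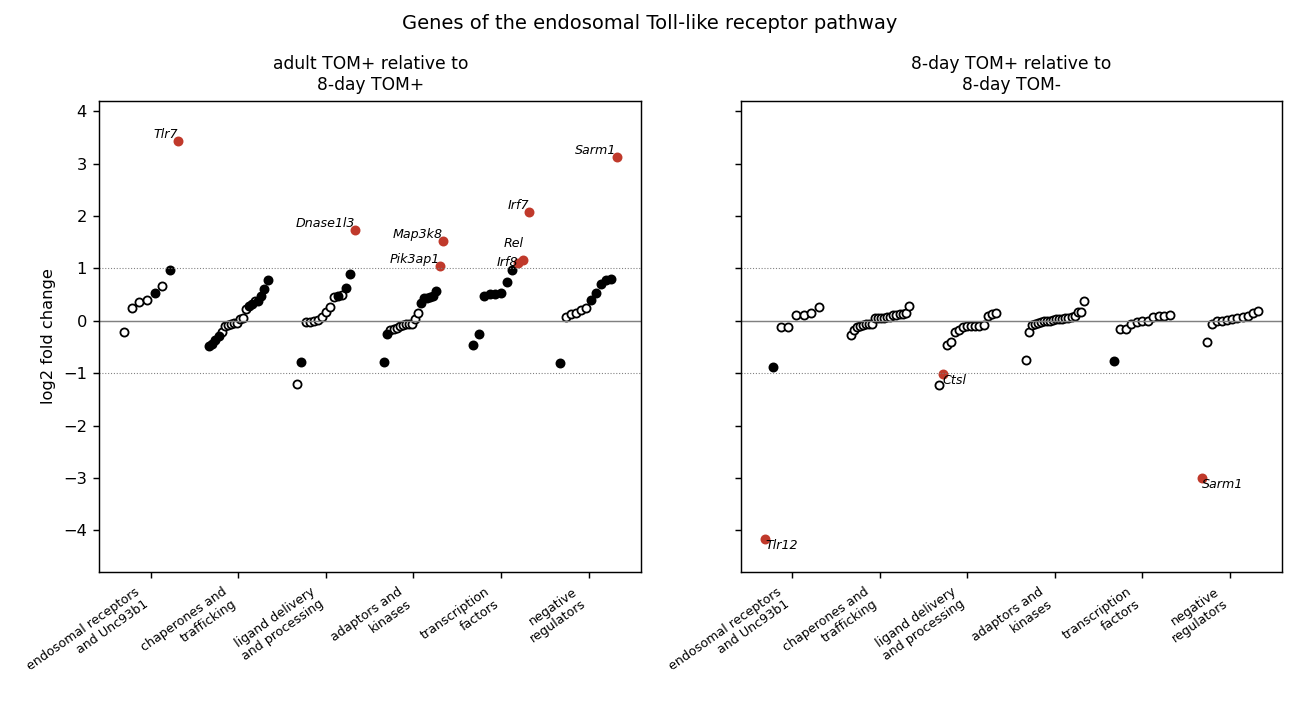
log2 fold change (vertical axis) of each tested gene of the 6 lists of the pathway, ordered by value within a list, in the age comparison of TOM+ cells and between the young groups, with dotted lines at the fold required for a call. Red points were called and are named, filled black points passed at an adjusted p under 0.05 only and open points did not pass, and Tlr7 at 3.43 and Tlr12 at -4.17 lie farthest from 0 in the respective panels.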

How the data were processed

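The data are 9 bulk mRNA sequencing libraries of mouse spleen cells, 3 per group, with groups from the labels. Library numbers (81, 91, 92 and 95) come from the deposited names, and their meaning is not given in the sources used here. The authors aligned reads to mm10 with STAR and deposited its read counts per gene, of which the unstranded column was used. The authors also deposited RSEM expected counts, TPM and FPKM. TPM served for levels, the expected counts (rounded) for an alternative, and the deposited FPKM were not used. Reads that STAR did not assign to a gene, 26.1% to 31.6% of all reads, entered neither library sizes nor tests.

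Counts of the 14452 genes averaging at least 1 read were tested with edgeR 4.0.16 in R 4.3.3, by its quasi-likelihood test with TMM on all 9 libraries in 3 groups, with Benjamini-Hochberg adjustment over all genes. Genes were called at a log2FC beyond 1 and an adjusted p under 0.05. SE were derived from that test, as the absolute log2FC divided by the square root of its F statistic. The 95% intervals were built from these SE with a t quantile, and are thus approximate. Alternatives were DESeq2 1.42.0 with apeglm 1.24.0, limma 3.58.1, other filters and scalings, library number as a block, and each library left out in turn. The gene tests were tested on simulated data. Deviations of same-numbered young libraries correlated with r = 0.746, 0.501 and 0.517, so the number pairs them, as a finding from the data and not from the labels, while young and adult libraries of the same number gave -0.0028 to 0.157. No library was a copy of another (lowest chi-square per gene 8.743).

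The genes and lists were chosen with earlier results of these data known. Named were the 8 genes, every called gene of each pathway and marker list, the 2 genes of lowest p where a pathway list had none called, Myd88, Ticam1, Irf5, Irf7, Cnpy3, Hsp90b1 and Slc15a4, and the 3 genes most correlated with each receptor. Other pathway, sensor and marker genes (Ctss, Lgmn, Hmgb1, Batf, Tnfaip3, Mb21d1 and Bst2, for example) were chosen after their values were seen. Some genes that this rule names, markers among them, are not reported here. Sequences before start sites came from RefSeq (GRCm38.p6), with a window for 6 of the 8 genes, and gene positions from GENCODE (GRCm38, the same build as mm10).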

Additional observations from a re-analysis of the deposited data

How the results depend on the processing

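Over 24 results for the 8 genes (3 comparisons each) and 18 alternatives per comparison, 410 of 432 values kept their direction and their side of the adjusted p threshold, 9 lost and 5 gained a pass, and 8 changed sign. Tlr7 in both comparisons with adults and Tlr12 in both comparisons with TOM- DC2 were called under all 18. The number of the 8 genes called was 2 with library number as a replicate block over all 9 libraries in the age comparison of TOM+ cells (Unc93b1 was added), 1 to 3 there when each library was left out, and 1 to 2 between the young groups. Same-numbered young and adult libraries hardly deviated together, and adult library 95 alone carries its number. The block over all libraries thus does not rest on pairs and leaves that library out of the age difference. The block over the young pairs, where Tlr7 had -0.90 (adjusted p = 0.00032, edgeR), changed no call. limma on log2(TPM + 1) called 1122 genes of all tested rather than 1853 with age in TOM+ cells and 986 rather than 1631 between young TOM- and adult cells, and the cause was not tested. With limma on log2(TPM + 0.1) the median log2FC of all genes was -0.172 and -0.22 in these comparisons, against -0.049 and -0.07. The changes of sign were all in genes that did not pass. With each library left out in turn, Tlr9 ran from -0.034 (without adult library 95) to 0.382 with age in TOM+ cells and, between young TOM- and adult cells, -0.04 and -0.066 by limma at a pseudocount of 1 and 0.1, -0.077 with the replicate block over all numbers and, with each library left out, -0.143 (without adult library 95) to 0.272. In the same way Tlr8 ran there from -0.045 (without adult library 92) to 0.443 and between the young groups from -0.261 to 0.086 (without TOM- library 81), where Tlr13 ran from -0.037 (without TOM+ library 81) to 0.271. Unc93b1 was called in 16 of 18 alternatives between young TOM- and adult cells. Tlr8 and Tlr9 rest on 47 to 107 reads per library and Tlr12 in TOM+ cells on 25 to 67, and the effect of depth was not tested.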

Other observations

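Sensors of nucleic acids in the cytosol, which do not need UNC93B1, were listed beside the endosomal receptors. Of 8 tested, 6 rose in adult compared with young TOM+ cells, against 19.5% of all genes tested, and 4 of these were called, against 6.86%. The called genes were Zbp1 (log2FC 2.14, from 28.4 to 92.1 TPM), Ddx58 (1.28), Ifih1 (1.03) and Dhx58 (1.03), the first a sensor of Z-form nucleic acids and the others of the RIG-I family of RNA sensors. Mb21d1, the gene of the DNA sensor cGAS, fell by 0.95 on the log2 scale (adjusted p = 2.3e-05, edgeR). None of the 8 passed between the young groups, where 1.6% of all genes tested passed and their smallest adjusted p was 0.49 for Mb21d1. Of 5 Toll-like receptors of the cell surface, Tlr1 (log2FC 1.14) and Tlr5 (1.33) were called as higher and Tlr4 (-1.10) as lower in adult TOM+ cells. Over all genes tested, 6.86% were called as higher and 5.96% as lower. Tlr2 fell by 0.61 on the log2 scale. None of the 5 passed between the young groups, where 1.6% of all genes tested passed.

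In the marker lists, genes called in at least 1 comparison included Esam, Cd209a, Clec4a4, Clec10a, Cd4 and Dtx1 for cDC2 and their ESAM-high part, Cadm1, Naaa, Cd8a and Gcsam for cDC1, and none for pDC. Others were Ms4a1, Cr2 and Fcer2a for B cells, Ccr2 (also on the ESAM-low list) and Fn1 for monocytes, Hmox1 and Spic for macrophages, and Ngp and Mpo for neutrophils. Of 4 Y-linked genes, a list added after the data were seen, all rose with age in TOM+ cells, against 19.5% of all genes tested, and Ddx3y was called (log2FC 1.06).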
